A study of Caenorhabditis elegans with 12 samples.

Results

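Bestrophins are chloride channels opened by calcium, built as rings of subunits, and the family is expanded in nematodes. In humans, mutations of BEST1 cause Best macular dystrophy, a disease of the retinal pigment epithelium. Two-pore potassium channels carry the background potassium leak that sets the resting potential of neurons and muscle, and each subunit brings a pair of pore domains. In Caenorhabditis elegans most two-pore channel genes carry the name twk, and a few, such as sup-9 and egl-23, kept names from mutant screens.

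The genes described here were those of the deposited count table named best or twk followed by a number and holding at least 10 counts over the 12 libraries. There were 69 of them among the 18467 genes of the table, 26 best genes and 43 twk genes. Of these, 67 passed the filter on low counts and were tested, 25 best and 42 twk. The untested members were best-2, with 65 counts over all libraries, and twk-4, with 71. The gene twk-20 was not analysed here. No sequences of these genes were used.

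Wild-type worms of the N2 strain were fed bacteria for RNA interference (RNAi), in 4 groups of 3 libraries. The groups were control RNAi and RNAi against vha-6, vha-16 or vha-19, which encode subunits of the vacuolar proton pump (V-ATPase). In the vha groups 25% of the RNAi was against the named gene and the other 75% was control RNAi. RNAi began at the L1 larval stage, and RNA of the worms was taken after 2.5 days at 20 °C, at the L4 larval or young adult stage, with polyA enrichment before sequencing. No label ties a library to a culture of its own, so p-values measure the spread between these libraries, which may be technical. The 3 comparisons with control share the same control libraries. Where 3 values stand together without a group name, they are in the order vha-6, vha-16 and vha-19.

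Each library held 21981854 to 22553227 counts assigned to genes. Levels are given as CPM, counts brought to an equal library size by TMM, and CPM per kb of exonic length where genes are compared with each other. Each targeted gene was lowest in its own RNAi group, but the other vha groups also differed from control. vha-6 stood at 89.2 to 98.5 CPM in its own group against 396 to 405 in control, and at 126 to 128 and 114 to 119 in the vha-16 and vha-19 groups. vha-16 stood at 262 to 276 CPM in its own group against 429 to 453 in control, at 854 to 896 in the vha-6 group and at 371 to 384 in the vha-19 group. vha-19 stood at 206 to 224 CPM in its own group against 462 to 475 in control, at 767 to 796 in the vha-6 group and at 314 to 321 in the vha-16 group. Libraries of control and vha groups differed in composition, and the TMM factors were 0.763 to 0.775 in control and above 1 in every vha library. With library totals as the scale, the median change over all genes moved up by 0.45 (vha-6), 0.52 (vha-16) and 0.54 (vha-19) on the log2 scale, so the changes below are relative to the bulk of the transcriptome. In RNA of whole worms, fewer cells of a type and less RNA per cell cannot be told apart.

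Most bestrophin genes were higher under all 3 vha treatments. A gene was called at an adjusted p under 0.05 in edgeR's quasi-likelihood test, adjusted over all 17043 genes tested. Of the 25 tested best genes, 19 rose and 1 fell with vha-6 RNAi, 22 rose and 1 fell with vha-16 RNAi, and 22 rose and 1 fell with vha-19 RNAi. The shares that rose were 76%, 88% and 88%, where 47.9%, 48% and 47.7% of all genes tested rose and 41.4%, 41.9% and 42.2% fell. The median log2 fold change of the best genes was 1.01, 1.08 and 1.01, beside 0.24, 0.20 and 0.19 for all genes. Rises of 2-fold or more were called for 13, 14 and 13 best genes, beside 32%, 34.3% and 33.6% of all genes. Falls of that size made up 22.7%, 24.8% and 24.9% of all genes. The summed level of the 26 best genes was 196 ± 3.26 CPM in control (SD, n = 3), 453 ± 11.4 in the vha-6 group, 437 ± 14.3 in the vha-16 group and 445 ± 11 in the vha-19 group.

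The twk genes were also mostly higher, with smaller medians than the best genes; the families were not tested against each other. Of the 42 tested, 28 rose and 3 fell with vha-6 RNAi, 27 rose and 5 fell with vha-16 RNAi, and 32 rose and 5 fell with vha-19 RNAi. The shares that rose were 66.7%, 64.3% and 76.2%. Rises of 2-fold or more were called for 33.3%, 31% and 40.5% of the tested twk genes, close to the shares of all genes for the first 2 treatments. The median log2 fold change was 0.62, 0.74 and 0.70, and the summed level went from 236 ± 2.32 CPM in control to 356 ± 5.07, 330 ± 1.35 and 330 ± 2.28 (SD, n = 3).

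How many members were counted as risen depended on the scaling. Scaled to library totals, 23, 23 and 24 best genes and 37, 35 and 35 twk genes rose, at most 1 best and 5 twk genes fell in a comparison, and the share of all calls that were rises went from 53.6%, 53.4% and 53% to 63.9%, 65.2% and 65.3%. With library totals the medians were 1.45, 1.59 and 1.55 for best and 1.07, 1.26 and 1.25 for twk, beside 0.68, 0.72 and 0.73 for all genes. With DESeq2's size factors they were 0.87, 0.89 and 0.84 for best and 0.48, 0.55 and 0.53 for twk, beside 0.10, 0.01 and 0.01 for all genes. Both family medians lay above 0 in each comparison with control under all 3 scalings.

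**Figure D1:**
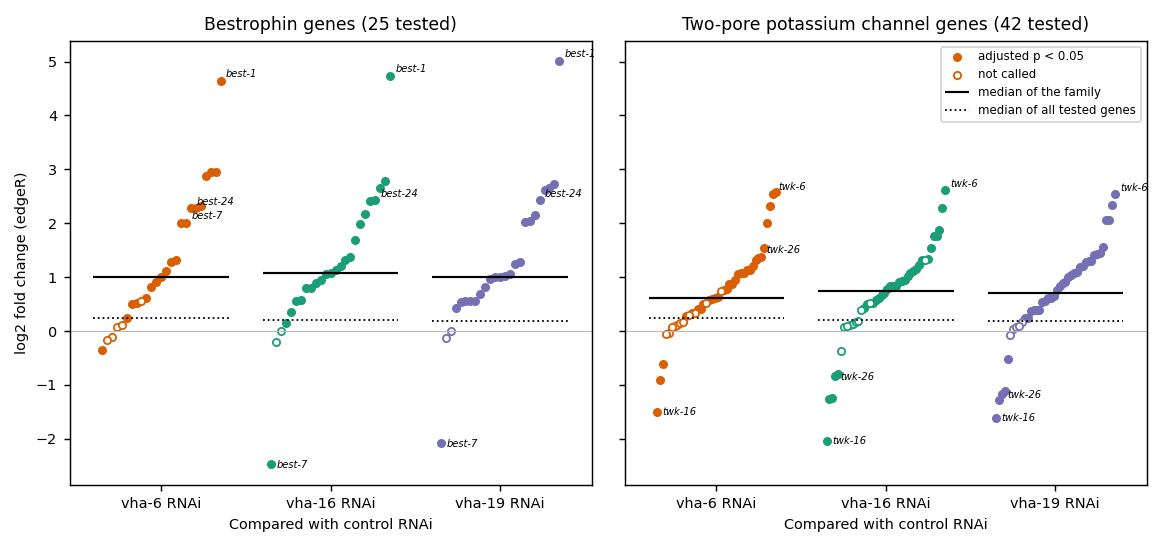
Log2 fold change against control of the 25 best and 42 twk genes tested, in the 3 comparisons. Filled points passed the test, the solid line is the family's median and the dotted line the median of all genes. The best median lies at 1.01 to 1.08 in the 3 comparisons.

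In control worms the bestrophin genes spanned mean levels from 0.0988 CPM (best-2) to 42.1 CPM (best-14), with a median of 2.76, and 15 of the 26 lay under 5 CPM. Per length, best-14 was the highest at 30.1 ± 2.55 CPM per kb, followed by best-22 at 11.8 ± 0.743 and best-13 at 10.8 ± 0.197 (SD, n = 3). best-14 made up 21.4% of the family's summed CPM in control.

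best-14 (WBGene00009340, chromosome V, positions 10557976 to 10560788, plus strand, genome build WBcel235, as are all positions here) was the most abundant bestrophin in control and among the least changed. Its levels were 38.2, 45.1 and 43.1 CPM in control, 35.2, 42.1 and 39.7 in the vha-6 group, 43.5, 50.4 and 45.5 in the vha-16 group, and 43, 41.7 and 41.3 in the vha-19 group. Each vha group overlapped control, but the vha-16 libraries lay above those of the other vha groups. Log2 fold changes against control were -0.11 (adjusted p = 0.0957), 0.14 (adjusted p = 0.0288) and 0.00 (adjusted p = 0.969), and the 1 call did not hold with DESeq2's size factors (-0.05), without control library 1 (0.07) or without vha-16 library 2 (0.09). Compared directly, best-14 was called lower with vha-6 than with vha-16 RNAi. best-15 passed no test against control, with mean levels of 10.5 CPM in control and 11.3, 9.18 and 9.66 in the vha groups. It was called in all 3 comparisons with library totals (0.55, 0.32 and 0.42), and called lower with DESeq2's size factors in the vha-16 (-0.39) and vha-19 (-0.29) comparisons.

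**Figure D2:**
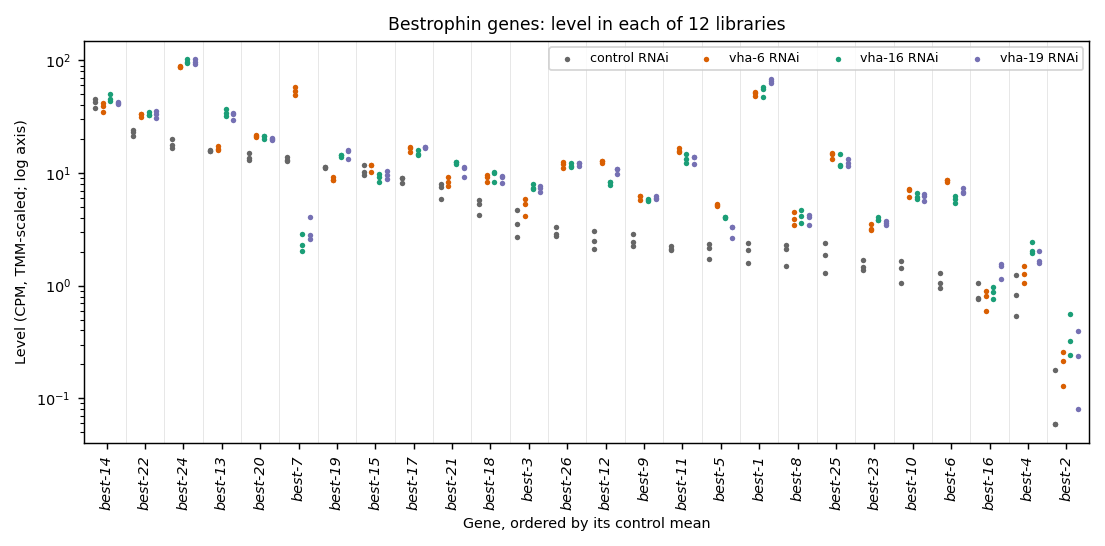
Level of each of the 26 best genes in each of the 12 libraries, in CPM on a log axis, ordered by the control mean. best-14 lies highest in control at 42.1 CPM, and best-1 lies at 1.59 to 2.4 CPM in control and at 47.6 to 68.1 CPM in the vha libraries.

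best-1 had the largest rise of the family in every comparison with control. The gene (WBGene00007203, chromosome IV, 13108140 to 13109779, minus strand) was at 2.4, 1.59 and 2.09 CPM in control, 51.7, 53 and 48.2 in the vha-6 group, 47.6, 58.3 and 56.4 in the vha-16 group, and 62.7, 68.1 and 66.1 in the vha-19 group. All 9 vha libraries lay far above the control libraries, and the vha-19 libraries lay above all others. Log2 fold changes reached 4.65 (SE 0.112, adjusted p = 1.61e-28), 4.73 (SE 0.11, adjusted p = 4.78e-29) and 5.01 (SE 0.107, adjusted p = 3.65e-30). Compared directly, the level with vha-19 RNAi was higher than with vha-16 RNAi by 0.28 (adjusted p = 0.000173), and the log2 fold change of vha-6 against vha-19 RNAi was -0.37 (adjusted p = 3.75e-07). Per length the gene moved from rank 18 of 26 in control, at 1.36 CPM per kb, to rank 2 in each vha group, at 34.3 (vha-6), 36.4 (vha-16) and 44.1 (vha-19).

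best-24 (WBGene00022797, chromosome III, 7901033 to 7904473, plus strand) held the highest level per length under each vha treatment. It was at 17.8, 16.7 and 20.2 CPM in control, 88, 89.6 and 87.9 in the vha-6 group, 96.2, 102.8 and 95.4 in the vha-16 group, and 93.1, 103.1 and 97.7 in the vha-19 group. No vha library overlapped the control libraries. The log2 fold changes were 2.28 (SE 0.0568, adjusted p = 4.51e-28), 2.43 (SE 0.056, adjusted p = 3.75e-29) and 2.43 (adjusted p = 3.85e-29). Per length it went from 8.53 CPM per kb, the fifth rank in control, to 41.4, 45.9 and 45.8. Its share of the family's CPM was 19.5%, 22.4% and 22% in the 3 vha groups, and best-1 held a further 11.2%, 12.4% and 14.8%.

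A cluster of 4 bestrophin genes on chromosome I rose under each treatment. best-26, best-25 and best-10 are direct neighbours with gaps of 1029 and 421 bases, and best-11 follows after 1 other gene, C49A1.1. best-25 (WBGene00014102, 14205717 to 14208726, plus strand) was at 1.88, 1.3 and 2.38 CPM in control, 14.8, 13.3 and 15.1 in the vha-6 group, 14.9, 11.9 and 11.6 in the vha-16 group, and 13.4, 11.5 and 12.2 in the vha-19 group. The 9 vha libraries lay above every control library, with log2 fold changes of 2.95 (SE 0.146, adjusted p = 1.89e-19), 2.78 (adjusted p = 1.54e-18) and 2.74 (adjusted p = 2.87e-18).

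best-11 (WBGene00008186, 14216701 to 14220624, minus strand) was at 2.23, 2.12 and 2.09 CPM in control, 15.3, 15.7 and 16.7 in the vha-6 group, 14.8, 13.3 and 12.4 in the vha-16 group, and 13.8, 13.8 and 12 in the vha-19 group. The vha libraries again lay above all control libraries, and the log2 fold changes were 2.89 (adjusted p = 1.08e-21), 2.65 (adjusted p = 2.42e-20) and 2.62 (adjusted p = 3.76e-20). The other genes of the cluster, named for their position, also rose. The log2 fold changes were 2.29, 2.17 and 2.15 for best-10 and 2.00, 1.98 and 2.01 for best-26.

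Neighbours elsewhere did not all move alike. best-1 lies 1718 bases from best-2, whose mean level was 0.0988 CPM in control and 0.199, 0.375 and 0.238 in the vha groups, too low to test. best-4 and best-3 on chromosome II, 1101 bases apart, had log2 fold changes of 0.56 (adjusted p = 0.0527) and 0.50 with vha-6 RNAi, 1.31 and 1.05 with vha-16 RNAi, and 1.02 and 1.01 with vha-19 RNAi. So this pair rose together, and best-4 gained the vha-6 call with library totals, no filter, the replicate block and the 2 groups alone. On the X chromosome, twk-21 and twk-22 lie 2272 bases apart and moved in opposite directions, as described below. By chromosome, 12 of the 26 best genes lie on IV and none of them on X, where 9 of the 43 twk genes lie.

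**Figure D3:**
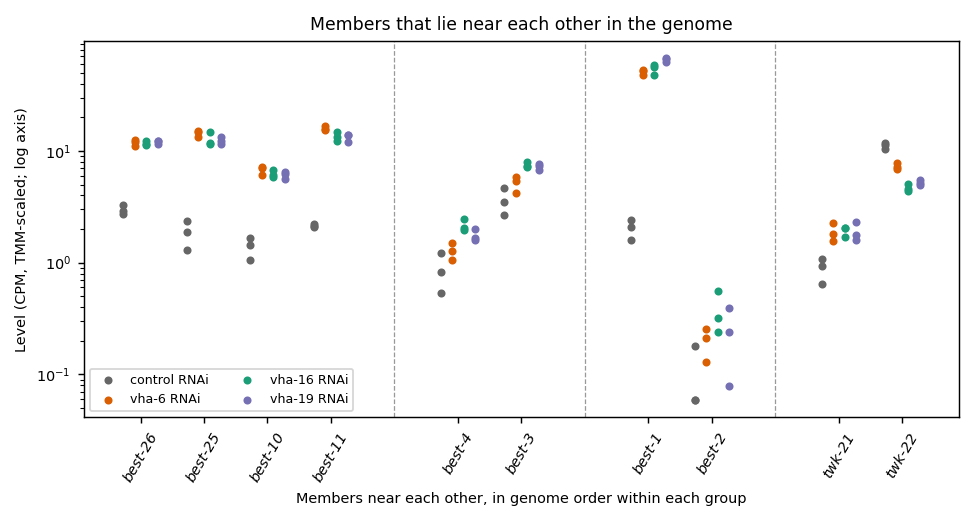
Levels in CPM of members that lie near each other, by library and group, on a log axis. All 4 genes of the chromosome I cluster are higher in each vha library than in any control library, while twk-21 rises and twk-22 falls.

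best-6 (WBGene00015628, chromosome IV, 5026513 to 5029078, minus strand) was at 1.06, 1.3 and 0.954 CPM in control, 8.7, 8.77 and 8.26 in the vha-6 group, 6.28, 5.91 and 5.46 in the vha-16 group, and 6.61, 6.82 and 7.35 in the vha-19 group. The vha-6 libraries were the highest and the control libraries the lowest, with no overlap between these groups and the rest. On the log2 scale it rose by 2.95 (SE 0.149, adjusted p = 3.42e-19), 2.41 (adjusted p = 7.63e-16) and 2.65 (adjusted p = 2.05e-17), and the level with vha-6 RNAi was higher than with vha-16 RNAi by 0.54 (adjusted p = 4.07e-06). The other best genes that rose in all 3 comparisons, 18 with those named above, had log2 fold changes from 0.24 upward with vha-6 RNAi, 0.55 with vha-16 RNAi and 0.53 with vha-19 RNAi. Among them best-22 rose by 0.52, 0.55 and 0.55 (adjusted p = 2.43e-09, 5.64e-10 and 6.33e-10). The vha-6 call of best-21 was lost with DESeq2's size factors or Wald test, and without control library 2 or vha-6 library 1 or 2. The vha-6 call of best-3 was lost without control library 3, and the vha-19 call of best-5 with the Wald test.

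best-7 moved in opposite directions between treatments, with the same calls under every alternative run. The gene (WBGene00007808, chromosome IV, 11226502 to 11230307, minus strand) was at 13.2, 12.9 and 13.8 CPM in control, 53.2, 58.4 and 49.1 in the vha-6 group, 2.3, 2.01 and 2.85 in the vha-16 group, and 2.81, 4.04 and 2.58 in the vha-19 group. The vha-6 libraries lay above and the vha-16 and vha-19 libraries below every control library. It rose by 2.01 with vha-6 RNAi (SE 0.0775, adjusted p = 1.34e-22), and was lower with vha-16 RNAi (log2 fold change -2.47, SE 0.133, adjusted p = 1.73e-18) and vha-19 RNAi (-2.08, SE 0.125, adjusted p = 4.37e-17). Compared directly, the level with vha-6 RNAi was higher than with vha-16 RNAi by 4.48 (SE 0.0988, adjusted p = 2.95e-29) and than with vha-19 RNAi by 4.09 (SE 0.0933, adjusted p = 9.01e-29). No member of either family differed more between vha treatments, and best-7 was the 1 best gene called lower than control in the vha-16 and vha-19 comparisons. best-15 joined it in the vha-16 comparison with the replicate number as a block, without control library 3 and without vha-16 library 2. Per length the gene ranked 6 of 26 in control, 4 with vha-6 RNAi, 24 with vha-16 RNAi and 23 with vha-19 RNAi.

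Of the exonic bases of best-7, 15 (0.75%) overlap the collagen gene col-125 on the opposite strand. col-125 was at 60.4 CPM in control and at 417, 280 and 308 in the vha groups, so it rose under all 3 treatments, including those in which best-7 fell. No source used here says whether the authors counted by strand. The 11 intestine markers matched by name summed to 6158 to 6515 CPM in control and 20972 to 22187 in the vha-6 group. Their sum was 3655 to 3680 CPM in the vha-16 group and 3693 to 3733 in the vha-19 group. Of the 11, 9 were called higher and 2 lower in the vha-6 group, against 5 higher and 6 lower with each other treatment. With vha-16 RNAi these counts were 5 and 5 when scaled to library totals. The part of the intestine markers in the result for best-7 was not tested.

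best-13 separated the treatments the other way. The gene (WBGene00009323, chromosome IV, 9903908 to 9905934, plus strand) was at 15.7, 16.1 and 15.6 CPM in control, 16.3, 16.1 and 17.5 in the vha-6 group, 31.9, 37.2 and 34.3 in the vha-16 group, and 29.8, 34.4 and 33.7 in the vha-19 group. The vha-6 libraries overlapped control, and the vha-16 and vha-19 libraries lay above both. Its log2 fold changes against control were 0.07 (adjusted p = 0.365), 1.13 (SE 0.0688, adjusted p = 6.8e-17) and 1.05 (adjusted p = 6.12e-16). With library totals and at the 5 CPM filter best-13 was called higher with vha-6 RNAi too. The level with vha-6 RNAi was lower than with vha-16 RNAi by a log2 fold change of -1.05 (SE 0.0636, adjusted p = 1.59e-16) and than with vha-19 RNAi by -0.98 (adjusted p = 1.8e-15).

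best-19 (WBGene00206487, chromosome IV, 283647 to 287215, plus strand), named as the 1 best gene that fell in the vha-6 group and thus after its values were seen, was at 11.1, 11.3 and 11.4 CPM in control, 9.3, 8.68 and 8.6 in the vha-6 group, 14.6, 13.9 and 14.4 in the vha-16 group, and 16.1, 15.8 and 13.3 in the vha-19 group. No group overlapped control. Its changes were small, with log2 fold changes of -0.34 (adjusted p = 0.000621), 0.35 (adjusted p = 0.000187) and 0.42 (adjusted p = 1.03e-05), and not all held. With library totals the vha-6 value was 0.10 and not called, at the 5 CPM filter the vha-6 call was also lost, and with DESeq2's size factors the vha-16 value was 0.16 and not called.

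Between vha-6 and vha-16 RNAi, 6 best genes were higher and 7 lower with vha-6 RNAi, of 25 tested, beside 31.2% and 31.6% of all genes. Against vha-19 RNAi 7 were higher and 7 lower, beside 29% and 29.5%. Several of these calls were lost when a single library was left out, or under another scaling or test. best-24, lower in both, lost its call against vha-16 RNAi without vha-16 library 2 and with DESeq2's size factors or Wald test, and against vha-19 RNAi without vha-19 library 2 and with the Wald test. Against vha-19 RNAi, best-15 lost its call without vha-6 library 1 or 2 or vha-19 library 3, best-25 without vha-6 library 1 or 3 or vha-19 library 2 or 3, and both with library totals. Changes of 2-fold or more between vha-6 and vha-16 RNAi were called for best-7 upward and best-13 downward, beside 7.39% and 8.11% of all genes, and between vha-6 and vha-19 RNAi for best-7, beside 6.29% higher and 6.99% lower. Between vha-19 and vha-16 RNAi, 3 best genes were higher with vha-19 RNAi, namely best-1, best-12 by 0.36 (adjusted p = 0.00164) and best-16 by 0.68 (adjusted p = 0.0283), and best-5 was lower (log2 fold change -0.39, adjusted p = 0.0274), beside 7.56% and 9.81% of all genes. The call of best-5 was lost without each vha-16 library in turn and without vha-19 library 1, and that of best-16 without vha-16 library 1 or 2 or vha-19 library 2 or 3.

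Among the two-pore channels, control means ranged from 0.0985 CPM (twk-44) to 36.4 CPM (twk-18), with a median of 3.39, and 25 of 43 genes lay under 5 CPM. Per length, twk-18 was the highest at 18.7 ± 1.34 CPM per kb, followed by twk-5 at 15.1 ± 0.644 (SD, n = 3) and twk-1 at 9.47.

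**Figure D4:**
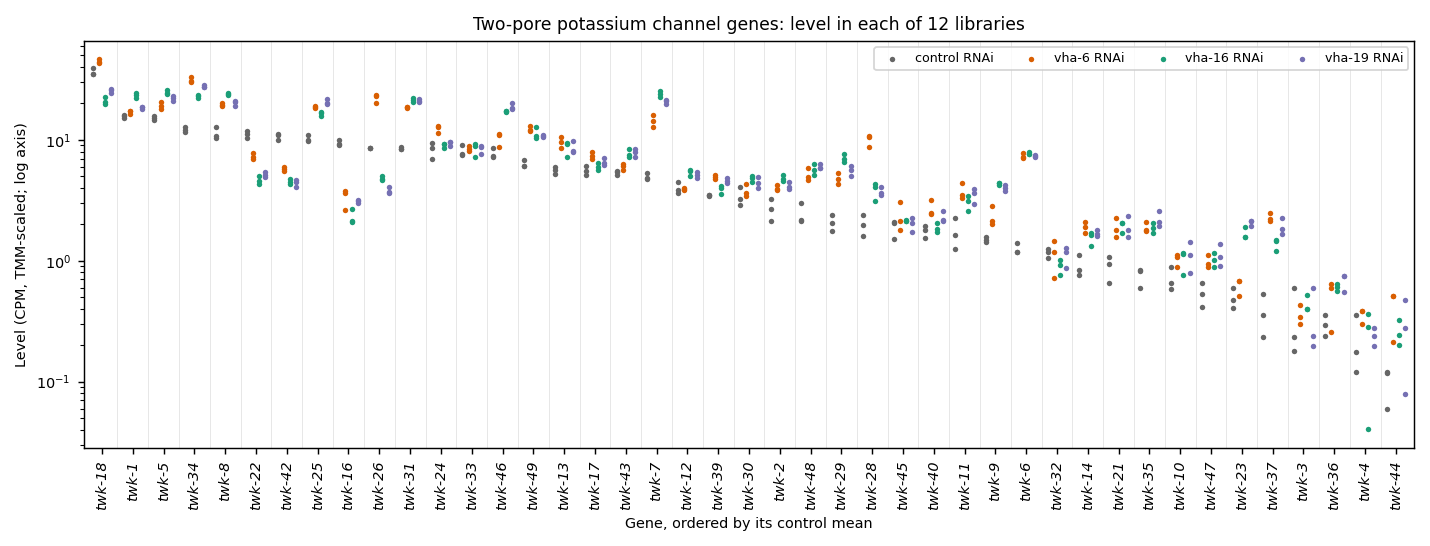
Level of each of the 43 twk genes in each of the 12 libraries, in CPM on a log axis, ordered by the control mean. twk-18 lies highest in control at 36.4 CPM, and 25 genes lie under 5 CPM there.

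twk-18 encodes a potassium channel of body-wall muscle, and gain-of-function mutations in it paralyse the worm. The gene (WBGene00006672, chromosome X, 8988128 to 8991975, plus strand) was at 39.5, 35.2 and 34.7 CPM in control, 46.4, 44 and 43.2 in the vha-6 group, 22.4, 20.5 and 20 in the vha-16 group, and 24.5, 25.8 and 26.2 in the vha-19 group. The groups did not overlap, with vha-6 highest, then control, vha-19 and vha-16. It rose with vha-6 RNAi by 0.29 (adjusted p = 8.95e-06) and was lower with vha-16 RNAi (-0.80, SE 0.0593, adjusted p = 1.5e-14) and vha-19 RNAi (-0.52, adjusted p = 4.2e-10). The fall with vha-19 RNAi depended on the scaling: with library totals the value was 0.03 (adjusted p = 0.65). The difference between vha-6 and vha-16 RNAi was 1.09 (adjusted p = 1.02e-18), and that between vha-6 and vha-19 RNAi 0.80 (adjusted p = 2.22e-15).

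The summed level of 15 body-wall muscle markers had the same order of groups, though single markers did not all follow it. This sum was 10131 to 10952 CPM in control, 12613 to 12911 in the vha-6 group, 6160 to 6365 in the vha-16 group and 6423 to 6720 in the vha-19 group. Of the 15, 9 rose and 4 fell with vha-6 RNAi, 2 rose and 12 fell with vha-16 RNAi, and 2 rose and 11 fell with vha-19 RNAi. myo-3 and ttn-1 rose under all 3 treatments, and pat-10, tnt-2, unc-27 and hlh-1 fell under all 3. The medians were 0.19, -0.61 and -0.64. With DESeq2's size factors 7 rose and 6 fell with vha-6 RNAi (median 0.06), and with library totals 5 rose and 8 fell with each of the last 2 treatments. Their part in the result for twk-18 was not tested.

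twk-26 (WBGene00006679, chromosome X, 3050369 to 3054824, minus strand) also rose with vha-6 RNAi and fell under the other treatments. It was at 8.62, 8.49 and 8.52 CPM in control, 20.1, 23.4 and 22.9 in the vha-6 group, 4.63, 4.71 and 4.98 in the vha-16 group, and 3.68, 3.65 and 4.05 in the vha-19 group. No 2 groups overlapped. The log2 fold changes against control were 1.37 (SE 0.0794, adjusted p = 1.65e-17), -0.84 (adjusted p = 4.3e-09) and -1.17 (adjusted p = 5.05e-12). The level with vha-6 RNAi was higher than with vha-16 RNAi by 2.21 (adjusted p = 1.09e-22) and than with vha-19 RNAi by 2.54 (adjusted p = 7.42e-24).

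twk-28 (WBGene00006680, chromosome X, 4274719 to 4279344, minus strand) rose under all 3 treatments, most with vha-6 RNAi. It was at 1.99, 1.59 and 2.38 CPM in control, 10.5, 8.64 and 10.7 in the vha-6 group, 3.1, 4.06 and 4.34 in the vha-16 group, and 3.64, 4.04 and 3.49 in the vha-19 group. The vha-6 libraries lay above all others, and the control libraries below all others. The log2 fold changes were 2.32 (SE 0.148, adjusted p = 2.45e-16), 0.95 (adjusted p = 1.01e-05) and 0.90 (adjusted p = 2.08e-05). The difference was 1.38 between vha-6 and vha-16 RNAi (adjusted p = 1e-12) and 1.42 between vha-6 and vha-19 RNAi (adjusted p = 5.68e-13).

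**Figure D5:**
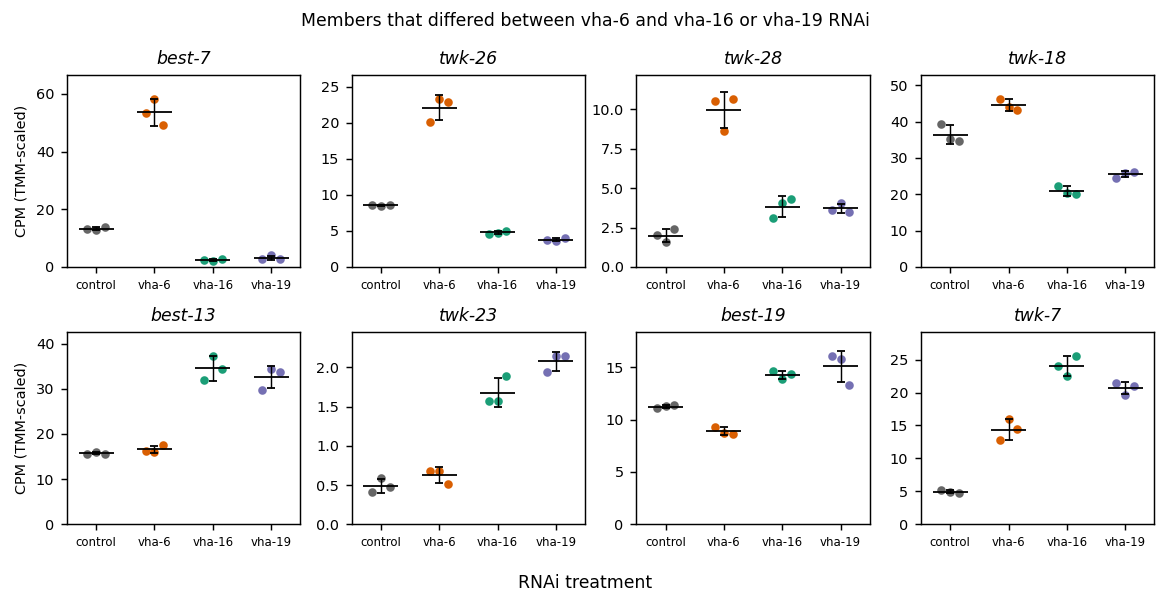
Levels in CPM of 8 members whose changes differed between vha-6 RNAi and the other vha treatments. Points are libraries and bars the mean ± SD (n = 3), and best-7 and twk-26 lie above control with vha-6 RNAi and below it under vha-16 and vha-19 RNAi.

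Among the largest twk rises common to all treatments were those of twk-6, twk-37 and twk-7. twk-6 (WBGene00006661, chromosome III, 4742920 to 4744719, plus strand) was at 1.41, 1.18 and 1.19 CPM in control, 7.81, 7.07 and 7.24 in the vha-6 group, 7.69, 7.64 and 7.87 in the vha-16 group, and 7.21, 7.29 and 7.51 in the vha-19 group. All vha libraries lay above control, the vha-16 libraries above the vha-19 libraries and the vha-6 libraries across both, with log2 fold changes of 2.54 (SE 0.144, adjusted p = 8.72e-18), 2.61 (adjusted p = 2.25e-18) and 2.54 (adjusted p = 6.85e-18). twk-37 (WBGene00006689, chromosome I, 6269420 to 6271533, minus strand) was a low gene, at 0.234, 0.531 and 0.358 CPM in control, 2.13, 2.21 and 2.47 in the vha-6 group, 1.21, 1.49 and 1.45 in the vha-16 group, and 1.66, 2.26 and 1.83 in the vha-19 group. Its control libraries lay below all vha libraries, and the log2 fold changes were 2.59 (SE 0.278, adjusted p = 1.91e-10), 1.87 (adjusted p = 1.2e-06) and 2.34 (adjusted p = 3.33e-09).

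twk-7 acts in motor neurons and is known for its effect on locomotor activity. The gene (WBGene00006662, chromosome III, 8634067 to 8643739, minus strand) was at 5.28, 4.83 and 4.77 CPM in control, 12.8, 16 and 14.4 in the vha-6 group, 24, 22.5 and 25.5 in the vha-16 group, and 21.4, 19.6 and 21 in the vha-19 group. No groups overlapped, and the order was control, vha-6, vha-19 and vha-16 from low to high. The log2 fold changes were 1.53 (adjusted p = 1.14e-15), 2.27 (adjusted p = 8.64e-22) and 2.06 (adjusted p = 3.12e-20). The level with vha-6 RNAi was below that with vha-16 RNAi (-0.74, adjusted p = 2.06e-11) and that with vha-19 RNAi (-0.52, adjusted p = 7.79e-08).

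twk-23 and twk-29 were also named by the size of their changes. twk-23 (WBGene00006676, chromosome X, 13817500 to 13823582, minus strand) was at 0.41, 0.59 and 0.477 CPM in control, 0.683, 0.681 and 0.511 in the vha-6 group, 1.57, 1.57 and 1.89 in the vha-16 group, and 1.94, 2.14 and 2.14 in the vha-19 group. Under vha-6 RNAi the libraries overlapped control (0.34, adjusted p = 0.353), and under the other treatments the gene rose by 1.76 (adjusted p = 1.97e-07) and 2.06 (adjusted p = 2.7e-09). The level with vha-6 RNAi was lower than with vha-16 RNAi (-1.42, adjusted p = 1.22e-06) and vha-19 RNAi (-1.72, adjusted p = 1.14e-08). twk-29 (WBGene00006681, chromosome I, 9463751 to 9468898, plus strand) was at 1.76, 2.06 and 2.38 CPM in control, 5.33, 4.72 and 4.34 in the vha-6 group, 7.57, 6.52 and 6.99 in the vha-16 group, and 6.06, 5.67 and 5 in the vha-19 group. It rose by 1.21 (adjusted p = 1e-08), 1.76 (adjusted p = 1.64e-13) and 1.43 (adjusted p = 9.55e-11), and no vha library overlapped control.

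The summed level of 16 neuronal markers had the same order of groups as twk-7. It was 875 to 886 CPM in control, 1164 to 1181 in the vha-6 group, 1800 to 1816 in the vha-16 group and 1641 to 1667 in the vha-19 group. Of the 16, 13 rose and 2 fell with vha-6 RNAi, and 15 rose and 1 fell under each other treatment. The median log2 fold changes of the list were 0.73, 1.04 and 0.86, beside twk family medians of 0.62, 0.74 and 0.70. Their part in the results for the twk genes was not tested.

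twk-40 sets the resting potential of motor-circuit neurons. The gene (WBGene00006691, chromosome III, 13486514 to 13492477, minus strand) was at 1.93, 1.53 and 1.79 CPM in control, 2.47, 3.15 and 2.43 in the vha-6 group, 1.73, 2.05 and 1.85 in the vha-16 group, and 2.18, 2.58 and 2.14 in the vha-19 group. Only the vha-16 libraries overlapped control. It rose by 0.61 with vha-6 RNAi (adjusted p = 0.00216) and by 0.39 with vha-19 RNAi (adjusted p = 0.0459), a call that was lost with DESeq2's size factors (0.22, adjusted p = 0.263) and without control library 2 (0.30), control library 3 (0.40) or vha-19 library 2 (0.32). Under vha-16 RNAi the change was 0.10 (adjusted p = 0.628). The abundant twk-5 rose by 0.34, 0.70 and 0.54 (adjusted p = 4.79e-05, 1.31e-11 and 7.81e-09), and twk-1 by 0.57 with vha-16 RNAi (adjusted p = 5.15e-10) and 0.24 with vha-19 RNAi (adjusted p = 0.00144, but 0.06 and not called with DESeq2's size factors), with 0.11 with vha-6 RNAi (adjusted p = 0.114).

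The twk genes that fell under all 3 treatments were twk-16, twk-22 and twk-42. twk-16 (WBGene00006670, chromosome X, 3081125 to 3085401, plus strand), whose promoter is used to mark the DVA neuron, was at 9.14, 9.91 and 9.3 CPM in control, 2.65, 3.66 and 3.75 in the vha-6 group, 2.09, 2.69 and 2.13 in the vha-16 group, and 3.17, 3.01 and 3.1 in the vha-19 group. All vha libraries lay below all control libraries, with log2 fold changes of -1.49 (SE 0.119, adjusted p = 1.13e-13), -2.03 (adjusted p = 1.38e-16) and -1.61 (adjusted p = 1.47e-14). It fell while most of the neuronal markers rose.

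twk-22 (WBGene00006675, chromosome X, 16306464 to 16314998, plus strand) was at 11.2, 11.9 and 10.4 CPM in control, 7.21, 7.75 and 6.94 in the vha-6 group, 4.55, 4.34 and 5.02 in the vha-16 group, and 5.15, 4.92 and 5.44 in the vha-19 group. The vha libraries lay below control, the vha-16 and vha-19 libraries also below the vha-6 libraries, and the log2 fold changes were -0.61 (adjusted p = 1.77e-07), -1.27 (adjusted p = 4.76e-14) and -1.11 (adjusted p = 7.96e-13). The fall with vha-6 RNAi was not called with scaling to library totals. Its neighbour twk-21, at 0.887 CPM in control, rose by 1.08, 1.12 and 1.10.

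twk-42 (WBGene00006692, chromosome V, 17726791 to 17732616, minus strand) was at 9.91, 11 and 11.3 CPM in control, 5.93, 5.49 and 5.79 in the vha-6 group, 4.75, 4.46 and 4.3 in the vha-16 group, and 4.04, 4.48 and 4.65 in the vha-19 group. It lay below control in all 9 vha libraries, with log2 fold changes of -0.90 (adjusted p = 1.38e-10), -1.25 (adjusted p = 8.71e-14) and -1.29 (adjusted p = 4.16e-14). 28 of its exonic bases overlap fat-5, a fatty acid desaturase gene on the opposite strand. fat-5 fell from 91.3 CPM in control to 26.9, 16.4 and 20.3, and with strand use not given, reads of the genes in these bases cannot be told apart. In all, 28 of the 69 members have an exon that overlaps another gene, and 41 have none. twk-22 shares 77 exonic bases with T01B4.3 on the opposite strand, which was at 6.17 CPM in control and 7.16, 8.5 and 6.40 in the vha groups and so did not fall with it. twk-28 shares 253 with C52B9.10, whose group means were at most 0.17 CPM, and twk-26 shares 128 with the noncoding C33D12.15, not analysed here. best-22 shares 125 with sec-24.2 on the opposite strand, and best-18 shares 60 with cts-1 on the opposite strand. sec-24.2 was at 166 CPM in control and 99.7, 114 and 112 in the vha groups. cts-1 was at 1224 CPM in control and 1638, 738 and 794 in the vha groups. twk-49, which rose under all 3 treatments, shares 27.4% of its exonic bases with T28D9.1 on the opposite strand, at 219 CPM in control and 185, 196 and 179 in the vha groups. The untested twk-4 shares 69.3% with sym-2 on the same strand.

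The remaining twk genes followed common patterns. Of the 42 tested, 21 rose in all 3 comparisons, with median log2 fold changes of 1.08, 1.08 and 1.10. Of these 21, twk-47 lost the vha-6 call with the Wald test and without control library 2. The vha-16 calls of twk-14 and twk-47 were also lost with the Wald test. Another 6 were called higher with vha-16 and vha-19 RNAi but not with vha-6 RNAi, namely twk-1, twk-12, twk-23, twk-30, twk-36 and twk-43. Compared directly, all of the 6 except twk-36 were lower with vha-6 than with vha-16 RNAi, and twk-12, twk-23 and twk-43 lower than with vha-19 RNAi. The direct call of twk-30 was lost without vha-6 library 1 or 2 or vha-16 library 1 or 3 and with the Wald test. The grouping depended on the scaling, since with library totals all 6 were called higher with vha-6 RNAi too. With DESeq2's size factors twk-12 and twk-36 lost the vha-16 call, and twk-1, twk-12 and twk-30 the vha-19 call. twk-36 also lost its vha-16 call without control library 3, and twk-30 its vha-19 call without control library 2. A further 4 (twk-17, twk-39, twk-40 and twk-44) were called higher with vha-6 and vha-19 RNAi but not with vha-16 RNAi, but with library totals all 4 gained the vha-16 call, and with DESeq2's size factors all 4 lost the vha-19 call. The vha-19 call was also lost for twk-44, at under 1 CPM in every library, without any 1 control library, and for twk-17 without control library 2 or 3 or vha-19 library 3. twk-24 was called higher with vha-6 RNAi (0.59, adjusted p = 8.98e-07), and also in the direct comparisons with the other vha treatments. With library totals and at the 5 CPM filter, twk-24 was called higher with vha-16 and vha-19 RNAi too. The vha-19 call of twk-24 was also gained with the 2 groups alone and without control library 3 or vha-19 library 3. twk-10 was called with vha-19 RNAi (0.64, adjusted p = 0.037), a call lost without control library 1 or 3 or vha-19 library 2 or 3 and with DESeq2's size factors. No call was made in any comparison with control for twk-3, twk-32, twk-33 and twk-45, whose log2 fold changes lay between -0.37 and 0.40. Of these, twk-33 and twk-45 were called in all 3 comparisons with library totals, and twk-33 in all 3 at the 5 CPM filter. A single test of any difference among the 4 groups called 37 of the 42 twk genes and 25 of the 25 best genes.

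Between vha-6 and vha-16 RNAi, 13 twk genes were higher and 13 lower of 42. These were 31% each, close to the shares of all genes given above. Against vha-19 RNAi the counts were 8 and 8, or 19% each, beside 29% higher and 29.5% lower among all genes. Between vha-19 and vha-16 RNAi, twk-16, twk-18, twk-25 and twk-34 were higher and twk-1, twk-7, twk-8, twk-26 and twk-29 lower with vha-19 RNAi, beside 7.56% and 9.81% of all genes. Among the higher, twk-25 differed by 0.33 (adjusted p = 0.000126) and twk-34 by 0.28 (adjusted p = 0.000256), and among the lower, twk-8 by -0.25 (adjusted p = 0.0022) and twk-26 by -0.33 (adjusted p = 0.0398). The calls of twk-7, twk-16, twk-26 and twk-29 were each lost without at least 4 of the libraries in turn, among them vha-16 library 1, vha-16 library 3, vha-19 library 2 and vha-19 library 3, and without each of these 4 libraries 2 twk genes were called lower.

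Other channel genes were counted beside the families. Of 5 two-pore channel genes with other names and their partners, 4 rose under vha-6 and vha-16 RNAi and 3 with vha-19 RNAi, counts that were 4, 2 and 1 with DESeq2's size factors and 5, 5 and 5 with library totals. sup-9, a muscle two-pore channel, rose by 0.72, 0.68 and 0.54, and egl-23, which affects egg laying, by 0.80, 0.72 and 0.73. sup-10, a partner of sup-9, rose by 0.64 with vha-6 RNAi and stood at 0.02 and 0.15 under the others. Of 25 other potassium channel genes, 20 rose and 2 fell with vha-6 RNAi and 22 rose and 1 fell under each other treatment, with medians of 0.89, 0.83 and 0.76. slo-2, a large-conductance potassium channel gene, went from 27.5 CPM in control to 44.6, 84.2 and 95.3.

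Of 8 other chloride channel genes, 5 rose and 3 fell under each treatment. With library totals 6 rose and 2 fell with vha-6 RNAi, and 5 rose and 2 fell under each other treatment. Of the ClC family, clh-5, clh-6 and clh-3 fell, and clh-1, clh-2 and clh-4 rose under each treatment. clh-5 went from 146 CPM to 59.7, 76.8 and 75.7 (log2 fold changes of -1.29, -0.93 and -0.95). anoh-1, an anoctamin, rose by 1.56, 1.81 and 1.61. The oocyte markers, 6 of 6, fell from a summed 4300 to 4375 CPM in control to 316 to 343 in the vha groups, and the 6 sperm markers, 6 of 6, rose from 82.8 to 88.7 CPM to 306 to 342. Of 8 hypodermis markers, 6 rose and 2 fell under each treatment. Their sum was 1723 to 1891 CPM in control, 2205 to 2286 in the vha-6 group, 1301 to 1405 in the vha-16 group and 1655 to 1725 in the vha-19 group. Pharynx markers rose in 5 of 5 under each treatment. The 3 excretory canal markers had median log2 fold changes of 0.22, -0.16 and -0.08, which were 0.67, 0.35 and 0.46 with library totals. The part of these lists in the members' levels was not tested.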

How the data were processed

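RNA of whole worms was sequenced in 12 libraries. The authors deposited raw read counts per gene, whole numbers with no normalization, which form the table used here. STAR 2.73a and edgeR 3.24.3 are named, with genome WBcel235, in the submitters' processing notes. No source used here gives the counting program or strand setting. The 3 entries of unassigned reads, 16.7 to 16.9% of all reads in control and 9.92 to 11.4% in the vha groups, stayed out of library sizes and tests.

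The fit used edgeR 4.0.16 under R 4.3.3. Its filterByExpr left 17043 of 18467 genes, libraries were scaled by TMM, and a negative binomial model with 1 mean per group was fitted to all 12 libraries. Each of 6 contrasts was tested with the quasi-likelihood F-test, with Benjamini-Hochberg adjustment over all genes tested. Log2 fold changes carry SEs from the same fit, and the biological coefficient of variation was 2.99%. Positions, exonic lengths and overlaps came from Ensembl release 115 (WBcel235).

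Values in every library are given for the up to 4 largest called rises and falls of 2-fold or more against control in each family (no overlap between groups, mean of at least 1 CPM), the up to 2 largest between vha treatments, the 3 highest per length in control, and twk-7, twk-18 and twk-40. Members and lists were chosen with earlier results of these data known. Each result was recomputed with library totals, with the size factors of DESeq2, no filter, a filter of 5 CPM, the 2 groups alone, the replicate number as a block, DESeq2 1.42.0's Wald test, and each library left out in turn.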

Additional observations from a re-analysis of the deposited data

How the results depend on the processing

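Each count of called members and each named member's change was recomputed with DESeq2's size factors, library totals, no filter, a filter at 5 CPM, the replicate block, the 2 compared groups alone and DESeq2's Wald test, and without each library in turn. Of the counts, 267 stayed within 1.5 times and 41 moved (512 and 16 with a library left out). Of the family medians, 42 stayed within the spread and 42 moved (117 and 27 with a library left out). Of the named members' changes, 403 kept direction and call, 10 gained and 4 lost the call and 15 turned. With a library left out, 747 kept direction and call, 8 gained and 5 lost the call and 8 turned. The cause was not tested unless named. best-1, best-7, best-24, twk-6 and twk-26 kept their calls against control in every alternative run, and twk-16 in every one except the 5 CPM filter, which removed it. Low depth limits genes under about 1 CPM, such as twk-44.

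Best genes that fell numbered 2 (vha-6), 2 (vha-16) and 3 (vha-19 against control) with DESeq2's size factors and with the Wald test alike, and with vha-6 RNAi 0 with library totals and 0 at 5 CPM. Best genes 2-fold higher with vha-19 RNAi numbered 21 with library totals. twk genes 2-fold higher numbered 24, 28 and 26 with library totals, and 9 with vha-6 RNAi with DESeq2's factors or Wald test; 2-fold lower, 1 and 1 (vha-16, vha-19) with library totals and 2 (vha-6) with DESeq2's factors or Wald test. The filter at 5 CPM left 19 twk genes, hence 17, 15 and 15 higher, 7, 7 and 7 higher by 2-fold, and 0 (vha-6) and 1 (vha-19) lower by 2-fold. Between vha-6 and vha-16 RNAi, it gave 8 twk genes higher, 7 lower and 0 lower by 2-fold, and the best gene lower by 2-fold became 0 with DESeq2's factors or Wald test. Between vha-6 and vha-19 RNAi, library totals gave 14 twk genes lower and 1 best gene lower by 2-fold. In the same comparison, 5 CPM gave 5 twk genes lower, 1 higher by 2-fold and 0 lower by 2-fold. Between vha-19 and vha-16 RNAi, best genes lower became 0 at 5 CPM and 0 with the Wald test, and twk genes lower 2 with the Wald test.

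Small changes turned in sign: best-14 with vha-6 RNAi 0.34 (library totals) and 0.11 (5 CPM), with vha-16 RNAi -0.049 (DESeq2's factors) and -0.049 (Wald test), and with vha-19 RNAi 0.54 (library totals), 0.024 (no filter), 0.20 (5 CPM) and 0.046 (2 groups); best-13 with vha-6 RNAi -0.062 (DESeq2's factors, Wald test); twk-18 with vha-19 RNAi 0.028 (library totals); twk-1 with vha-6 RNAi -0.022 (DESeq2's factors, Wald test); twk-40 with vha-16 RNAi -0.091 (DESeq2's factors) and -0.092 (Wald test).

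With a library left out, the ranges were 1 to 2 best genes lower (vha-6 and vha-16 against control), 0 to 2 best and 2 to 6 twk genes lower (vha-19 against vha-16), 0 to 1 best and 1 to 2 twk genes 2-fold lower (vha-6 against vha-16), 0 to 1 best genes 2-fold lower (vha-6 against vha-19), and -0.073 to 0.046 for best-14 with vha-19 RNAi.

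With the replicate number as a block, 2 best genes were lower with vha-16 RNAi and 3 with vha-19 against vha-16 RNAi, and no other count moved by over 1.5 times. Deviations of same-numbered libraries correlated by -0.04 to 0.05 over 18 pairs, and of other pairs by -0.03 to 0.03 over 36. No shared effect of the replicate number was visible, which with 3 libraries a group does not exclude a pairing.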
